A study of Homo sapiens with 10 samples.

Results

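The genes described here build and regulate mitosis: parts of the kinetochore, the spindle, the cohesion and cytokinesis machinery, the anaphase-promoting complex, and regulators of entry into mitosis. The list holds 59 gene symbols and leaves out kinesins, with the exception of CENPE, as well as the cyclins and the main mitotic kinases. It was applied by symbol to the gene-level count table. All 59 symbols were found among the 22003 features of that table, and all 59 were among the 14799 features that passed the filter on low counts and were tested. Their expression was measured by RNA sequencing in HaCaT, an established line of spontaneously immortalised human keratinocytes, labelled as wild type. Cells received vehicle or LBP, a polysaccharide-glycoprotein from the fruit plant Lycium barbarum, for 24 h. They were then left without irradiation or given 12 Gy, and RNA was taken at 3 h. Vehicle alone (called vehicle) and LBP alone (called LBP) have 2 libraries each, and their counterparts with 12 Gy (irradiated vehicle and irradiated LBP) have 3 each, 10 in all. Neither the concentration of LBP nor the composition of its vehicle was given in the labels.

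Libraries of 1 group are labelled as repeated experiment groups, and nothing states that they came from separate cultures, so p-values measure the spread between these libraries, which may be technical. Total counts ran from 31830506 to 62986831 per library. The labels give mucosa as the source, and the cells carried keratinocyte RNA: 11 of 11 keratinocyte markers exceeded 1 CPM in their mean over the 10 libraries. CPM is the count per 1e6 counts of a library after TMM scaling, and the same mean was used for the other markers below. The summed level of the keratinocyte markers was 13986 to 14630 CPM in the vehicle libraries, 16648 to 16931 with LBP, 13352 to 15236 after 12 Gy and 15149 to 16020 after LBP and 12 Gy. Markers of other cell types were low but not all absent. Over the 10 libraries 7 leukocyte markers summed to 12.8 to 19.8 CPM, with 2 above 1 CPM, and 6 fibroblast markers to 4.99 to 7.06 CPM, also with 2 above 1 CPM. The 4 endothelial markers summed to 1.66 to 3.61 CPM, with 1 above 1 CPM, and the 4 melanocyte markers to 0.637 to 1.27 CPM, with 0 above it. The defining markers TYROBP (leukocytes), DCN (fibroblasts), PECAM1 (endothelium) and TYR (melanocytes) were at 0 in every library.

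As background, cells make most transcripts of mitotic proteins in G2 and early mitosis, and such transcripts are low in G1. Their promoters often carry a short element called the cell cycle genes homology region (CHR), which is bound by the MuvB core. With p130 or p107 and E2F4 this core forms the repressive DREAM complex, and with B-MYB and then FOXM1 it activates transcription in G2. Ionising radiation halts cells at checkpoints before mitosis. In bulk RNA, a smaller number of cells in G2 or mitosis and less of a transcript in each such cell cannot be told apart.

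Averaged over the pretreatments, 36 of the 59 members (61.0%) were lower in irradiated cells and 0 were higher by edgeR's quasi-likelihood test at an adjusted p under 0.05. Of all features tested, 0.473% were lower and 0.0878% higher, so that the members made up 51.4% of the 70 features that fell. The list was chosen with earlier results of these data known, so these shares may partly reflect that choice. At an unadjusted p under 0.05, 50 members were lower and 0 were higher. The share of all features at that cut was not computed, here or in the comparisons below. DESeq2 called 45 lower, against 0.851% of all features, and limma on FPKM called 33 lower, against 0.508%. The fitted difference was below 0 for 59 of 59 members. Its median was -0.41 on the log2 scale, or 1.33-fold lower, against a median of 0.00 over all features tested. The values ranged from -1.34 for PIF1 to -0.02 for SKA1, and 3 members (PIF1, PSRC1 and FAM83D) fell by at least 1 on that scale. In 34 members every irradiated library lay below every non-irradiated one, against 1.21% of all features.

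The shift was present in each irradiated library. Relative to the mean of the vehicle libraries, the median member stood at -0.47, -0.47 and -0.50 on the log2 scale in the irradiated vehicle libraries. It stood at -0.62, -0.51 and -0.53 in the irradiated LBP libraries, at -0.17 and -0.14 in the LBP libraries and within 0.01 of 0 in the vehicle libraries. Between 55 and 59 of the 59 members were below the vehicle mean in each irradiated library. In non-irradiated cells with LBP, 50 and 48 were. The members together took 0.866% to 0.876% of all counts in vehicle libraries, 0.748% to 0.753% with LBP, 0.630% to 0.657% after 12 Gy and 0.579% to 0.637% after LBP and 12 Gy, with no overlap between non-irradiated and irradiated cells. Per length, their levels in vehicle cells ran from 4.23 ± 0.32 FPKM (SD, n = 2) for SGO1 and 4.27 ± 0.12 FPKM for PIF1 to 235 ± 4.7 FPKM for UBE2C.

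**Figure D1:**
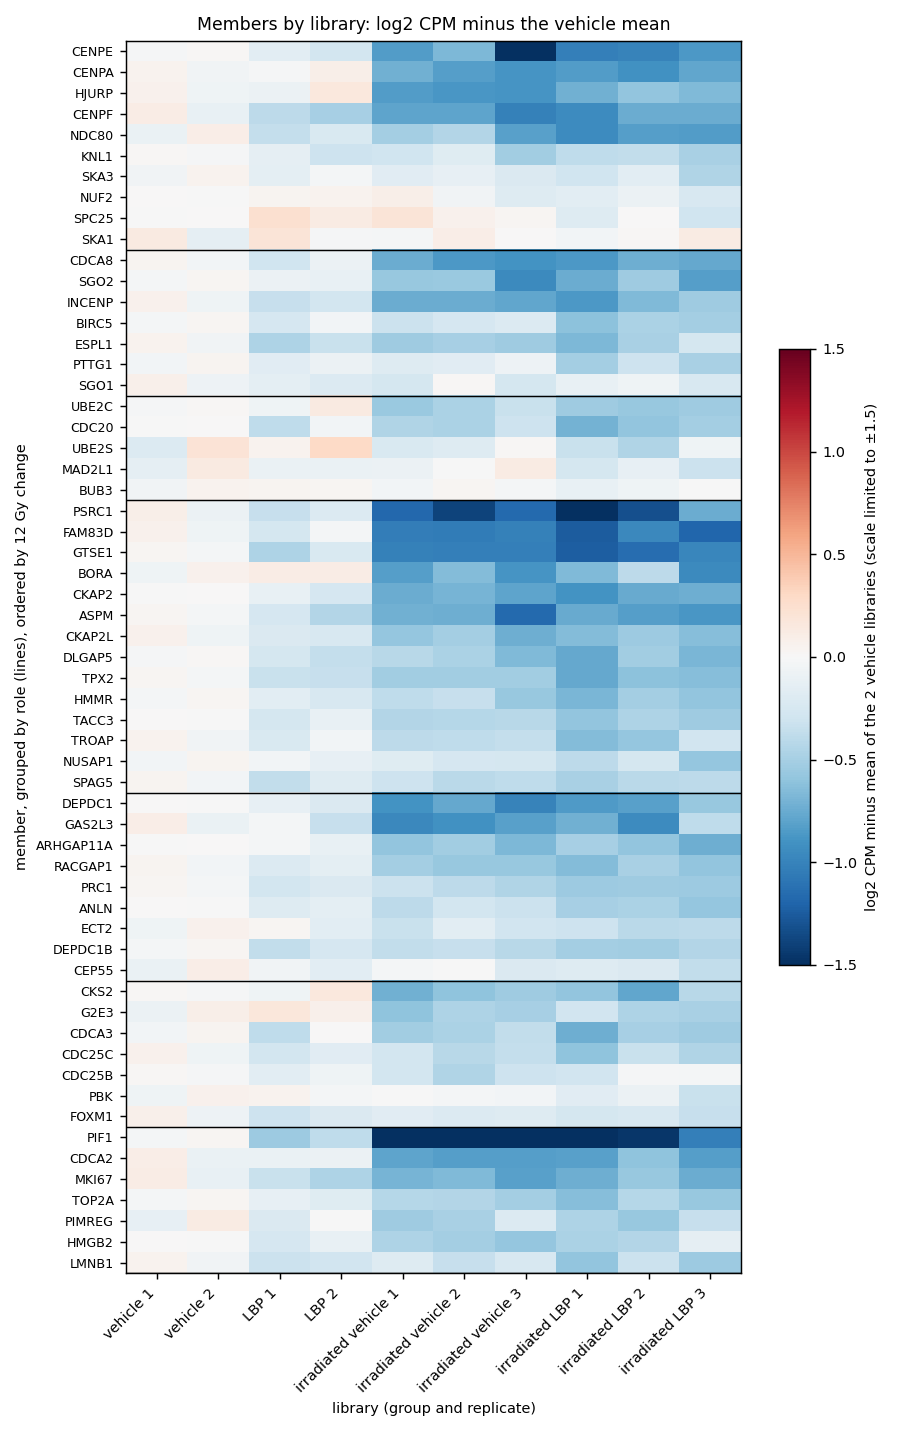
Level of each of the 59 members (rows, grouped by role) in each of the 10 libraries (columns) as log2 CPM minus the mean of the 2 vehicle libraries, with blue below and red above that mean. The 6 irradiated libraries are blue for most members of each role, the 2 LBP libraries are pale blue in many rows, and rows such as SKA1 and BUB3 stay near white.

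Each member was placed in a single role for this description, and the counts by role depend on that grouping. Among regulators of mitotic entry, 3 of 7 members fell after 12 Gy (median -0.29). CKS2, a small subunit that binds cyclin-dependent kinases, measured 106 and 104 CPM in the vehicle libraries, 101 and 117 with LBP, 63.8, 69.3 and 73.0 after 12 Gy, and 69.6, 61.4 and 78.8 after LBP and 12 Gy. Each irradiated library was below each non-irradiated one, and the change over both pretreatments was -0.63 ± 0.07 (adjusted p = 0.000834). Such values are the log2 fold change ± a standard error derived from edgeR's F statistic, with the Benjamini-Hochberg adjusted p from edgeR. G2E3, a ubiquitin ligase named for its G2-specific expression, measured 47.4 and 53.2 CPM in the vehicle libraries, 56.3 and 53.0 with LBP, 33.1, 36.3 and 35.7 after 12 Gy, and 41.3, 36.3 and 35.8 after LBP and 12 Gy. Its groups likewise did not overlap between radiation states, with a change of -0.53 ± 0.06 (adjusted p = 0.000908). CDCA3, an adaptor for degradation of the kinase WEE1, measured 50.1 and 52.8 CPM in the vehicle libraries, 39.6 and 51.5 with LBP, 35.9, 37.0 and 40.0 after 12 Gy, and 30.9, 36.4 and 35.7 after LBP and 12 Gy. The lower LBP library at 39.6 CPM reached into the irradiated range, and the change was -0.43 ± 0.08 (adjusted p = 0.0263). PBK, a mitotic kinase of the MAPKK family, measured 87.2 and 96.1 CPM in the vehicle libraries, 94.6 and 89.6 with LBP, 90.8, 89.5 and 88.9 after 12 Gy, and 81.3, 85.8 and 72.6 after LBP and 12 Gy, so its vehicle and irradiated vehicle libraries overlapped (-0.12 ± 0.06, adjusted p = 0.455). FOXM1, the transcription factor that drives G2 and M genes, did not pass the test either: it measured 258 and 233 CPM in the vehicle libraries, 197 and 210.4 with LBP, 218, 212 and 215 after 12 Gy, and 204, 207 and 193 after LBP and 12 Gy, a difference of -0.10 ± 0.05 (adjusted p = 0.449). The phosphatases that activate CDK1, CDC25C and CDC25B, had values of -0.29 ± 0.08 and -0.17 ± 0.06 and were not called.

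Among genes of chromosome and nuclear structure, 4 of 7 fell (median -0.42). The member with the lowest fold change of the 59 was PIF1, a DNA helicase (chr15:64815632-64825668, minus strand, GRCh38). It measured 12.8 and 13.3 CPM in the vehicle libraries, 8.95 and 9.998 with LBP, 3.96, 3.66 and 3.76 after 12 Gy, and 4.06, 4.75 and 6.39 after LBP and 12 Gy. The irradiated vehicle libraries were the lowest, the irradiated LBP libraries lay above them without overlap, and the LBP libraries lay between vehicle and the irradiated groups. The average change was -1.34 ± 0.11 (adjusted p = 7.59e-05). CDCA2, also called Repo-Man, which targets protein phosphatase 1 to chromatin at mitotic exit, measured 67.6 and 58.5 CPM in the vehicle libraries, 58.8 and 59.3 with LBP, 36.4, 35.5 and 35.5 after 12 Gy, and 35.8, 41.3 and 35.4 after LBP and 12 Gy. Irradiated and non-irradiated libraries did not overlap (-0.74 ± 0.06, adjusted p = 7.13e-05). MKI67, the proliferation antigen Ki-67 that coats mitotic chromosomes, measured 732 and 629 CPM in the vehicle libraries, 539 and 494 with LBP, 417, 430.0 and 386 after 12 Gy, and 408, 456 and 406 after LBP and 12 Gy. Its LBP libraries lay below vehicle and above the irradiated libraries, and the 12 Gy change was -0.51 ± 0.06 (adjusted p = 0.00116). TOP2A, the topoisomerase that untangles sister DNA, changed by -0.42 ± 0.05 (adjusted p = 0.00116), from 842 and 882 CPM in vehicle libraries to 638, 638 and 608 after 12 Gy. LMNB1, a nuclear lamin, measured 134 and 124 CPM in the vehicle libraries, 103 and 106 with LBP, 113, 102 and 109 after 12 Gy, and 85.5, 103 and 88.2 after LBP and 12 Gy, and irradiated and non-irradiated libraries overlapped (-0.22 ± 0.06, adjusted p = 0.219). PIMREG, a regulator of the metaphase to anaphase transition, and HMGB2, a chromatin protein, had values of -0.38 ± 0.09 and -0.34 ± 0.07 and did not pass the average test, although HMGB2 did without LBP (-0.52 ± 0.10, adjusted p = 0.0458).

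At the kinetochore and centromere, 5 of 10 members fell (median -0.42). CENPA, the histone H3 variant that marks the centromere (chr2:26764289-26801067, plus strand), measured 28.2 and 26.4 CPM in the vehicle libraries, 26.9 and 28.9 with LBP, 16.6, 15.3 and 14.7 after 12 Gy, and 15.2, 14.6 and 15.9 after LBP and 12 Gy. LBP and vehicle libraries overlapped, the 6 irradiated libraries lay far below them, and the change was -0.84 ± 0.06 (adjusted p = 3.05e-05). HJURP, the chaperone that deposits CENPA, measured 105 and 96.6 CPM in the vehicle libraries, 95.1 and 112 with LBP, 56.4, 55.1 and 54.8 after 12 Gy, and 61.3, 67.1 and 64.0 after LBP and 12 Gy. It changed by -0.78 ± 0.06 (adjusted p = 3.05e-05), again with no overlap between radiation states. CENPF, a large coiled-coil protein of the outer kinetochore, measured 246 and 212 CPM in the vehicle libraries, 174 and 162 with LBP, 132, 132 and 113 after 12 Gy, and 119, 136 and 137 after LBP and 12 Gy. The LBP libraries were below the vehicle libraries, and the irradiated groups lay below both (-0.61 ± 0.07, adjusted p = 0.000549). CENPE, the kinetochore motor that brings chromosomes to the metaphase plate, changed by -0.86 ± 0.13 (adjusted p = 0.00505), and its irradiated vehicle libraries were widely spread at 34.3, 38.4 and 21.1 CPM.

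The Ndc80 and Ska complexes hold the microtubule, and 1 of the 5 listed members of these complexes was called. NDC80 measured 45.2 and 51.9 CPM in the vehicle libraries, 37.7 and 41.3 with LBP, 34.0, 35.7 and 27.6 after 12 Gy, and 25.3, 27.4 and 27.0 after LBP and 12 Gy. It fell by 0.58 on the log2 scale (SE 0.08, adjusted p = 0.00227). Its partners NUF2 and SPC25 had values of -0.13 ± 0.06 (adjusted p = 0.46) and -0.12 ± 0.07 (adjusted p = 0.54). SKA1 measured 48.3 and 39.9 CPM in the vehicle libraries, 50.1 and 43.5 with LBP, 43.0, 46.9 and 44.0 after 12 Gy, and 42.7, 44.3 and 48.0 after LBP and 12 Gy, so that irradiated libraries sat inside the non-irradiated range. The difference was -0.02 ± 0.07 (adjusted p = 0.942), with a 95% confidence interval of -0.17 to 0.13, and its sign was positive in some alternative settings. SKA3, the partner of SKA1, and KNL1, the platform for checkpoint proteins, were at -0.19 ± 0.06 and -0.26 ± 0.07 and were not called.

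**Figure D2:**
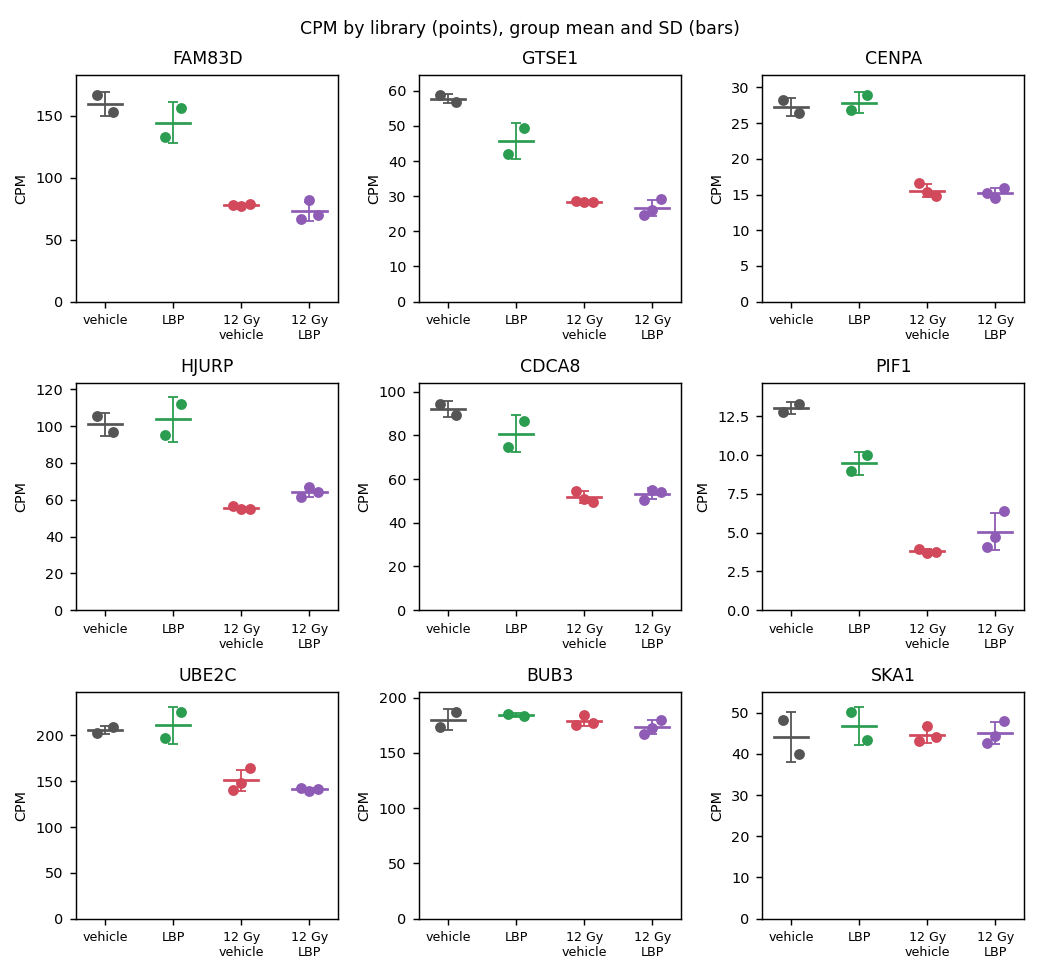
CPM in each library (points) with the group mean and SD (bars) for 9 members, in vehicle, LBP, irradiated vehicle (12 Gy vehicle) and irradiated LBP (12 Gy LBP) cells; each vertical axis starts at 0. In FAM83D, GTSE1, CENPA, HJURP, CDCA8, PIF1 and UBE2C each irradiated library lies below each non-irradiated one, whereas in BUB3 and SKA1 the groups overlap.

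Of the genes for sister cohesion, separase and the chromosomal passenger complex, 4 of 7 fell (median -0.32). The passenger complex carries Aurora B to the centromere. Its subunit CDCA8, or borealin (chr1:37692418-37709719, plus strand), measured 94.5 and 89.3 CPM in the vehicle libraries, 74.7 and 86.8 with LBP, 54.7, 50.7 and 49.5 after 12 Gy, and 50.4, 55.2 and 54.0 after LBP and 12 Gy, a change of -0.72 ± 0.06 (adjusted p = 6.18e-05) with no overlap between radiation states. The scaffold INCENP measured 155 and 142 CPM in the vehicle libraries, 117 and 123 with LBP, 88.7, 88.6 and 86.7 after 12 Gy, and 81.7, 94.0 and 102 after LBP and 12 Gy, lowest in the irradiated groups and intermediate with LBP (-0.56 ± 0.06, adjusted p = 0.000549). BIRC5, or survivin, another subunit, measured 151 and 158 CPM in the vehicle libraries, 129 and 149.8 with LBP, 124, 129.8 and 134 after 12 Gy, and 101, 112 and 109 after LBP and 12 Gy. In 1 LBP library the level was within the irradiated range, and the change was -0.32 ± 0.06 (adjusted p = 0.0182). SGO2, a shugoshin that protects centromeric cohesin, measured 45.5 and 47.0 CPM in the vehicle libraries, 43.6 and 42.8 with LBP, 31.2, 31.5 and 23.9 after 12 Gy, and 27.6, 31.9 and 26.0 after LBP and 12 Gy. It changed by -0.64 ± 0.08 (adjusted p = 0.00198), with no overlap. Its paralog SGO1 measured 12.1 and 10.9 CPM in the vehicle libraries, 10.4 and 9.95 with LBP, 9.58, 11.6 and 9.59 after 12 Gy, and 10.7, 10.9 and 9.68 after LBP and 12 Gy, with overlapping groups and a difference of -0.06 ± 0.08 (adjusted p = 0.796). The protease ESPL1, or separase, and its inhibitor PTTG1, or securin, were at -0.29 ± 0.07 (adjusted p = 0.145) and -0.23 ± 0.06 (adjusted p = 0.142).

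In the checkpoint and the anaphase-promoting complex group, 2 of 5 members fell (median -0.30). UBE2C, the ubiquitin-conjugating enzyme that starts chains on the complex's substrates, measured 203 and 209 CPM in the vehicle libraries, 197 and 225 with LBP, 140.5, 148 and 164 after 12 Gy, and 142, 139 and 142 after LBP and 12 Gy. The non-irradiated libraries were all above the irradiated ones (-0.52 ± 0.06, adjusted p = 0.000549). CDC20, the activator of the complex in metaphase, measured 423 and 425 CPM in the vehicle libraries, 327 and 413 with LBP, 310.1, 306 and 343 after 12 Gy, and 259, 281 and 297 after LBP and 12 Gy. The LBP library at 327 CPM lay within the irradiated range, and the change was -0.41 ± 0.07 (adjusted p = 0.0164). UBE2S, which extends the chains, measured 149 and 197 CPM in the vehicle libraries, 177 and 211 with LBP, 146, 149 and 173 after 12 Gy, and 136, 125 and 163 after LBP and 12 Gy, with groups that overlapped and a difference of -0.30 ± 0.10 (adjusted p = 0.297). MAD2L1, the checkpoint inhibitor of CDC20, measured 63.3 and 76.4 CPM in the vehicle libraries, 65.1 and 65.1 with LBP, 65.2, 69.2 and 75.7 after 12 Gy, and 57.9, 64.0 and 55.5 after LBP and 12 Gy, again overlapping, with a difference of -0.07 ± 0.07 (adjusted p = 0.734). BUB3, which docks checkpoint kinases at kinetochores, stood at -0.05 ± 0.05 (adjusted p = 0.683), with an interval of -0.15 to 0.05.

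Among spindle genes, 11 of 14 fell (median -0.46). FAM83D, which anchors casein kinase 1 to the spindle (chr20:38926312-38953106, plus strand), measured 166 and 153 CPM in the vehicle libraries, 133 and 156 with LBP, 78.0, 77.1 and 79.1 after 12 Gy, and 66.9, 81.7 and 69.8 after LBP and 12 Gy. The 6 irradiated libraries lay between 66.9 and 81.7 CPM, below all 4 others, and the change was -1.01 ± 0.07 (adjusted p = 1.36e-05). GTSE1, a microtubule-binding protein that also restrains p53, measured 58.8 and 56.9 CPM in the vehicle libraries, 42.0 and 49.3 with LBP, 28.5, 28.4 and 28.3 after 12 Gy, and 24.6, 26.2 and 29.2 after LBP and 12 Gy. Its 3 irradiated vehicle libraries were nearly equal, and the change was -0.90 ± 0.06 (adjusted p = 2.75e-05). PSRC1, a microtubule-binding protein of the central spindle, changed by -1.07 ± 0.13 (adjusted p = 0.00127), from 29.7 and 26.4 CPM in vehicle libraries to 12.4, 10.7 and 12.5 after 12 Gy. BORA, the cofactor through which Aurora A activates PLK1, changed by -0.77 ± 0.09 (adjusted p = 0.00116). CKAP2, a spindle microtubule protein, measured 129.5 and 129.8 CPM in the vehicle libraries, 120.3 and 109 with LBP, 77.5, 79.9 and 74.9 after 12 Gy, and 69.9, 76.9 and 77.8 after LBP and 12 Gy, with irradiated libraries well below the rest (-0.68 ± 0.05, adjusted p = 3.06e-05). TPX2, which targets and activates Aurora A, measured 517 and 493 CPM in the vehicle libraries, 399 and 398 with LBP, 352, 351 and 352 after 12 Gy, and 297, 329.8 and 324 after LBP and 12 Gy, in the order vehicle, LBP and then irradiated cells (-0.43 ± 0.05, adjusted p = 0.000549).

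A further 5 spindle genes fell. ASPM, a protein of spindle poles, was at -0.67 and CKAP2L, a relative of CKAP2, at -0.49. DLGAP5, a microtubule stabiliser near chromosomes, was at -0.43, the spindle pole protein HMMR at -0.41 and TACC3, a clathrin partner in kinetochore fibres, at -0.39. The 3 spindle members without a call had values of the same sign. NUSAP1, a microtubule bundler, measured 162 and 172 CPM in the vehicle libraries, 162 and 154 with LBP, 147, 140.0 and 139.7 after 12 Gy, and 127, 139 and 112 after LBP and 12 Gy. Its irradiated and non-irradiated libraries did not overlap, but the difference of -0.28 ± 0.06 (adjusted p = 0.0729) did not pass. TROAP (-0.37 ± 0.07, adjusted p = 0.052) and SPAG5 (-0.26 ± 0.05, adjusted p = 0.0503), both spindle proteins, were close to the threshold.

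Among cytokinesis genes, 7 of 9 fell (median -0.34). DEPDC1 measured 65.8 and 64.7 CPM in the vehicle libraries, 59.7 and 55.9 with LBP, 34.9, 38.3 and 32.5 after 12 Gy, and 36.1, 37.1 and 44.1 after LBP and 12 Gy. Irradiated and non-irradiated libraries did not overlap, and the change was -0.73 ± 0.07 (adjusted p = 0.000194). ARHGAP11A, a GTPase-activating protein, measured 166 and 167 CPM in the vehicle libraries, 162 and 154 with LBP, 110.2, 116 and 104 after 12 Gy, and 118, 111 and 99.9 after LBP and 12 Gy, again with no overlap (-0.56 ± 0.05, adjusted p = 0.000212). RACGAP1, a subunit of centralspindlin, measured 173 and 164 CPM in the vehicle libraries, 146 and 152 with LBP, 118, 114 and 113 after 12 Gy, and 107, 121 and 112 after LBP and 12 Gy, with LBP libraries just below vehicle and irradiated libraries clearly lower (-0.47 ± 0.05, adjusted p = 0.000315). GAS2L3, a linker of actin and microtubules at the midbody, changed by -0.69 ± 0.10 (adjusted p = 0.00693). PRC1, which bundles antiparallel microtubules of the midzone, changed by -0.34 ± 0.04 (adjusted p = 0.00188), the actin ring scaffold ANLN by -0.34 ± 0.05 (adjusted p = 0.0031) and DEPDC1B by -0.28 ± 0.05 (adjusted p = 0.0375). ECT2, an exchange factor that acts at the cleavage site, was at -0.28 ± 0.06 (adjusted p = 0.0563). CEP55, which acts in abscission, measured 135 and 154 CPM in the vehicle libraries, 139 and 128 with LBP, 141, 143 and 123 after 12 Gy, and 126, 124 and 111 after LBP and 12 Gy, with overlapping groups and a difference of -0.12 ± 0.06 (adjusted p = 0.501).

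**Figure D3:**
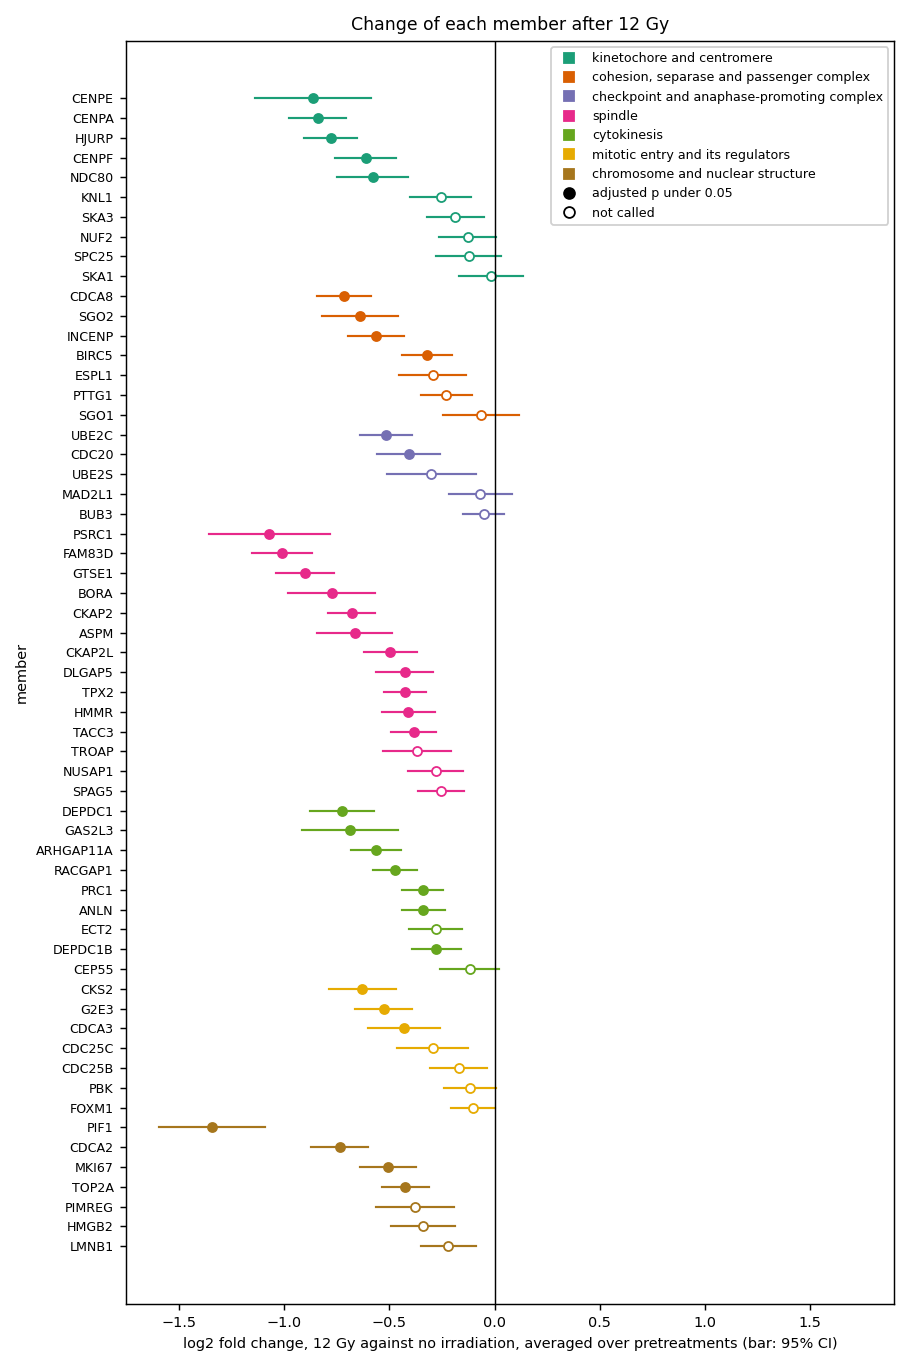
Log2 fold change of each member after 12 Gy, averaged over the pretreatments (points), with its 95% confidence interval (bars), coloured by role and filled where the adjusted p was under 0.05. The values run from -1.34 for PIF1 to -0.02 for SKA1, and no point lies above 0.

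Of the 36 calls, 19 held in each of 17 other settings, which changed the test, scaling, filter or unit or left out 1 library. DEPDC1B was called in leave-one-out fits when irradiated LBP replicate 3 was omitted and in no other of them. CDC20, BIRC5 and CDCA3 lost their calls without vehicle replicate 1 or 2, LBP replicate 2, or irradiated vehicle replicate 1 or 2. GAS2L3 lost its call without vehicle replicate 1 or LBP replicate 1, and DLGAP5 without vehicle replicate 2. Some counts may hold reads of an overlapping gene, since the strand setting of the counting was not given. In GENCODE v29 on GRCh38, 62.2% of the exon bases of NUSAP1 lie in exons of AC087721.2 on the same strand, as do 8.86% of those of SPAG5 in AC005726.1 and 6.96% of those of CENPA in SLC35F6. Exons of 11 members lie in part opposite another measured gene. The larger shares were in BORA (37.0%, DIS3), FOXM1 (15.9%, ITFG2), CDCA3 (9.71%, GNB3), CKAP2L (9.08%, NT5DC4), CDC25C (8.78%, FAM53C) and PIMREG (7.30%, PITPNM3). PRC1 shares 57.6% on the same strand with AC068831.7, which is not in the count table. The values of these members are uncertain to that extent.

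To show what the members share beyond their role, their promoters were searched for the letters of the CHR element, TTTGAA or TTCGAA on either strand, and for CCAAT on either strand. RefSeq promoters (GRCh38.p14, from 250 bases before to 50 after the start) were matched for 46 of 59 members. The CHR letters occurred in 35 of 46 (76.1%), against 13.4% of 15173 promoters of genes in the count table and 16.4% of all 35116 promoters. Within 100 bases before to 50 after the start they occurred in 31 of 46 (67.4%), against 5.46% for genes in the count table. CCAAT occurred in 31 of 46 (67.4%), against 36.6%, and at least 2 copies in 41.3%, against 12.7%. The letters were present in 24 of 30 matched members that fell and in 11 of 16 that were not called. The median 12 Gy difference was -0.43 in 35 members with the letters and -0.39 in 11 without. Split by the letters near the start, the order was the other way, with -0.41 in 31 members with them and -0.56 in 15 without. A match of letters is a description of sequence and not evidence of binding. The windows of at most 30 bases below are shown because members with large falls and members with little change carry the same letters, in capitals, near the start; TTCAAA is TTTGAA read on the other strand. Members that fell:
PIF1 (chr15:64825650-64825679, minus strand): ctgcctctagcaTTTGAAaaatttctagtt
PSRC1 (chr1:109283157-109283186, minus strand): gggcctgagagaTTCGAAaggagccccgcc
GTSE1 (chr22:46296832-46296861, plus strand): ctcggagcccttTTCAAAccgaccaatcgg
CENPA (chr2:26786026-26786055, plus strand): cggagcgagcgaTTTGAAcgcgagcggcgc
CDCA8 (chr1:37692481-37692510, plus strand): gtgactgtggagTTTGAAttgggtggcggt
CKS2 (chr9:89311154-89311183, plus strand): cgggctgtcggaTTCAAAtccggatcgttg
Members that were not called:
SKA1 (chr18:50375068-50375095, plus strand): cgcggcgggcggTTTGAAttttgcttac
SGO1 (chr3:20186192-20186221, minus strand): gaggcggaaaatTTCGAAtgtggcggcggt
MAD2L1 (chr4:120066807-120066836, minus strand): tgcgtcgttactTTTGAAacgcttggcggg
NUF2 (chr1:163321958-163321987, plus strand): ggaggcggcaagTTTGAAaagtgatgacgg
The 12 Gy values of these genes ran from -1.34 (PIF1) to -0.63 (CKS2) in the members that fell. They ran from -0.13 (NUF2) to -0.02 (SKA1) in the others.

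Other genes of the cell cycle, grouped in lists by function, gave a frame for these values (12 Gy averaged over pretreatments, edgeR). Of 12 mitotic kinesins 9 fell (median -0.52), with KIF18A at -0.94 and KIF23 at -0.63. Of 13 mitotic kinases 5 fell (median -0.22), with AURKA at -1.17, PLK1 at -0.86 and BUB1B at -0.52. Of 6 cyclins 4 fell (median -0.32), with CCNF at -1.07 and CCNB1 at -0.68. The G1 to S cyclins CCNE1 and CCNE2 were at 0.36 and 0.44 and were called higher by DESeq2, CCNE2 also by limma on FPKM, but not by edgeR; they are named after their values were seen. Among 16 other genes of the anaphase-promoting complex 1 was called, the activator FZR1 at -0.25, beside 6 at an unadjusted p under 0.05 (median -0.08). No gene was called among 13 of condensin and cohesin (median -0.11, 6 lower at an unadjusted p under 0.05), 21 constitutive centromere proteins (-0.05, 3 lower) or 26 of S phase and replication (-0.02, 2 lower and 1 higher). The same held for 18 DREAM, MuvB and E2F regulators (0.00, 4 higher) and 13 regulators of G1 arrest (0.09, 2 higher). In those 5 lists DESeq2 called NCAPG, NCAPD2 and CENPL lower, and limma on FPKM called 0. CDKN1A, the p53 target that inhibits cyclin-dependent kinases, measured 108 and 128 CPM in the vehicle libraries, 159.6 and 147 with LBP, 136, 139.9 and 159 after 12 Gy, and 225, 126 and 244 after LBP and 12 Gy. Its irradiated LBP libraries were widely spread, and the difference was 0.34 ± 0.15 (adjusted p = 0.419).

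**Figure D4:**
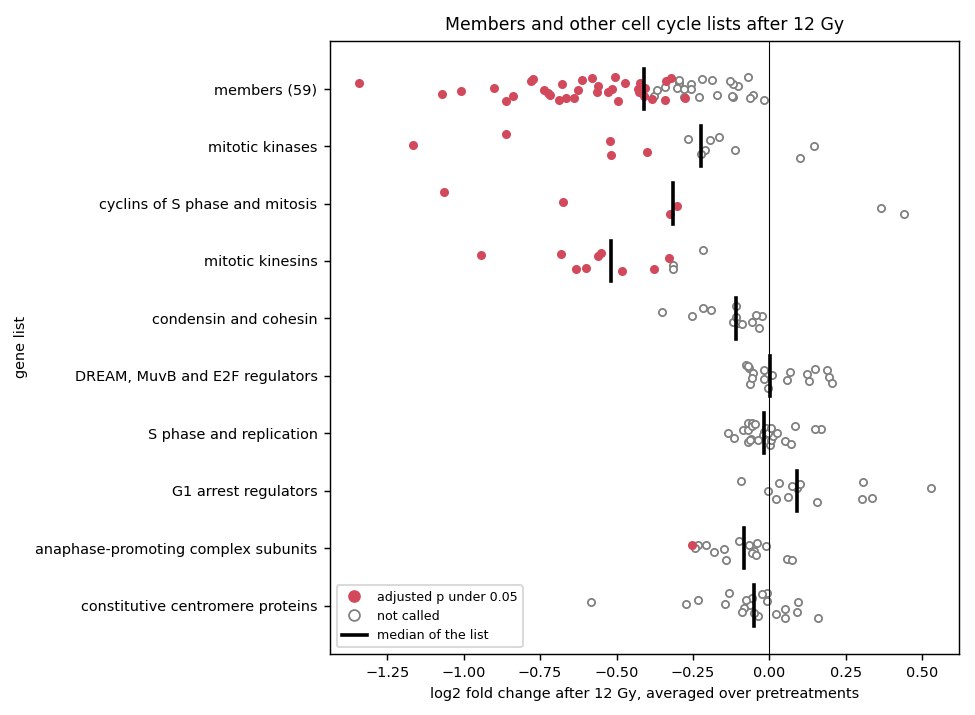
Log2 fold change after 12 Gy, averaged over the pretreatments, for each gene (points) of the members and of 9 other cell cycle lists (rows), filled where the adjusted p was under 0.05, with the list median as a bar. The members, kinases, cyclins and kinesins have medians from -0.52 to -0.22, while the medians of the other 6 lists lie from -0.11 to 0.09.

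The comparison of irradiated with non-irradiated cells was also made within each pretreatment. Without LBP, 32 of 59 members (54.2%) fell and 0 rose, against 0.405% of all features lower and 0.0338% higher. At an unadjusted p under 0.05, 48 were lower and 0 higher. In 50 members every irradiated library was below every vehicle library, against 13.9% of all features. The median was -0.45, and the values ran from -1.78 ± 0.16 for PIF1 to 0.10 ± 0.10 for SPC25. By role, the calls comprised 11 of 14 spindle genes, 5 of 10 kinetochore genes, 5 of 9 cytokinesis genes, 5 of 7 chromosome genes, 3 of 7 cohesion and passenger genes, 2 of 7 entry genes and 1 of 5 checkpoint genes. Among the largest falls were PSRC1 (-1.24 ± 0.19, adjusted p = 0.0108), FAM83D (-1.03 ± 0.09, adjusted p = 0.000359) and GTSE1 (-1.02 ± 0.09, adjusted p = 0.000359). The count changed with the library left out. It was 18 without irradiated vehicle replicate 1 or 2 and 20 without irradiated vehicle replicate 3. Without irradiated LBP replicate 1, 2 or 3, which this comparison does not use, it was 33, 32 or 34. Of all features, 0.203% to 0.454% were lower in these fits. Fewer members were called without a vehicle library, and the median was -0.49 without vehicle replicate 1 and -0.42 without vehicle replicate 2. When a vehicle library was left out, the lone one was assumed to vary like the other groups. CENPA, HJURP, CDCA8, CKAP2, FAM83D, GTSE1, DEPDC1, CDCA2 and PIF1 kept their calls in all 18 alternative settings.

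After LBP, 11 of 59 members (18.6%) fell and 0 rose, against 0.128% of all features lower and 0.0135% higher. The 11 were CENPA, HJURP, CDCA8, UBE2C, FAM83D, GTSE1, CKAP2, ARHGAP11A, CKS2, G2E3 and CDCA2, and each also fell without LBP. At an unadjusted p under 0.05, 46 were lower and 0 higher, and DESeq2 called 36, against 0.703% of all features. The median difference was -0.36. In 53 members every irradiated library was below every LBP library, against 14.0% of features. FAM83D had the lowest value at -0.99 ± 0.09 (adjusted p = 0.000532), followed by PIF1, which was not called (-0.90 ± 0.16, adjusted p = 0.0627), PSRC1, not called either (-0.90 ± 0.19, adjusted p = 0.124), and CENPA (-0.87 ± 0.09, adjusted p = 0.001). CENPA was called in each of 18 alternative settings, and no other of the 11 was. Fewer members and fewer of all features were called without LBP replicate 1 or 2, which left 1 LBP library. The median was then -0.36 and -0.35.

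The comparisons without and after LBP share no library. Across the 59 genes, which come from the same libraries within each comparison and are not independent replicates, Pearson's r between their values was 0.79. In 41 of 59 members the value was lower without LBP. The difference itself was tested as an interaction, which is positive where 12 Gy lowered a gene less after LBP than without it. By edgeR, 0 of 59 members passed, against 0.00676% of all features in each direction, and DESeq2 and limma on FPKM also called 0. At an unadjusted p under 0.05, 9 members were positive and 1 was negative, with no share of all features computed at that cut. The median was 0.08.

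The 9 positive members were PIF1, CENPF, MKI67, ESPL1, INCENP, CDC25B, HMGB2, ASPM and DEPDC1, and the negative one was SPC25. They are named by their unadjusted p after the values were seen. PIF1 had an interaction of 0.88 ± 0.23 (unadjusted p = 0.00258, adjusted p = 0.573). In non-irradiated cells its LBP libraries (8.95 and 9.998 CPM) were below vehicle (12.8 and 13.3 CPM), and in irradiated cells they (4.06, 4.75 and 6.39 CPM) were above (3.96, 3.66 and 3.76 CPM). The interaction was 0.50 ± 0.14 for CENPF (unadjusted p = 0.00294, adjusted p = 0.573) and 0.44 ± 0.12 for MKI67 (unadjusted p = 0.00402, adjusted p = 0.573). For SPC25 it was -0.44 ± 0.14 (unadjusted p = 0.00947, adjusted p = 0.577).

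**Figure D5:**
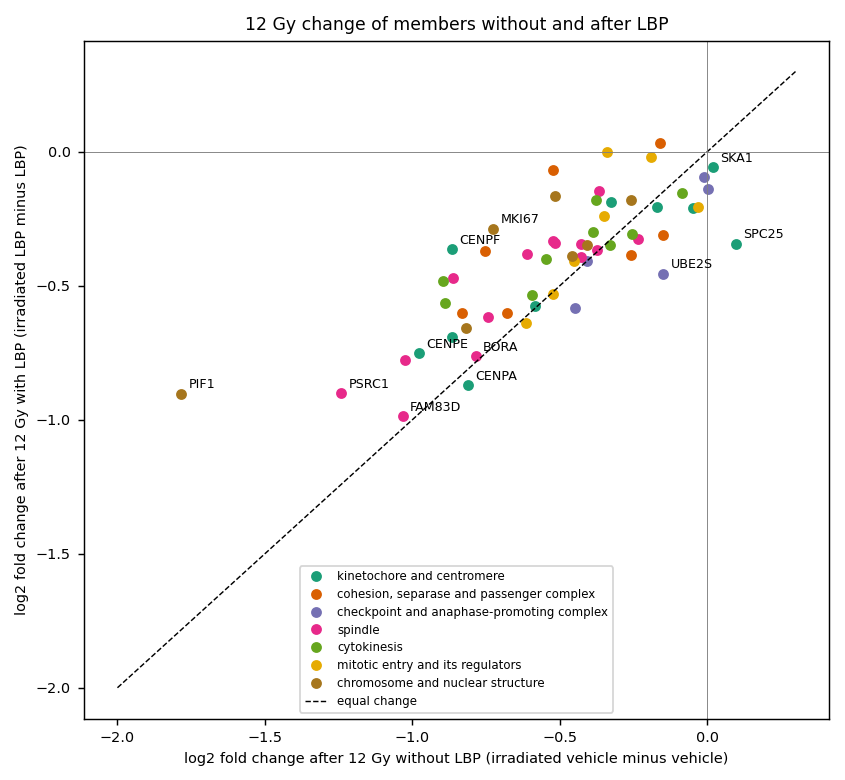
Log2 fold change of each member after 12 Gy without LBP (horizontal axis) and after LBP (vertical axis), coloured by role, with a dashed line of equal change. Most points lie below 0 on both axes, and 41 of 59 lie above the dashed line with a lower value without LBP, and PIF1 is farthest from it.

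LBP pretreatment itself was compared with vehicle in each radiation state, with vehicle or LBP libraries that the 12 Gy comparisons also used. Without irradiation, edgeR called 0 of 59 members, against 0.264% of all features lower and 0.541% higher. At an unadjusted p under 0.05, 21 members were lower and 0 higher, but without the share of all features this count does not show an effect particular to the members. DESeq2 called 7 lower (FOXM1, PRC1, CENPF, SPAG5, TPX2, MKI67 and ESPL1), against 1.24% of all features, and limma on FPKM called 0. The fitted difference was negative in 47 members, with a median of -0.17 against 0.01 over all features. Groups of 2 against 2 libraries did not overlap in 36 members with LBP lower and in 3 with LBP higher, against 22.3% and 23.2% of all features. The members nearest to the threshold were TPX2 (-0.34 ± 0.07, adjusted p = 0.0553), CENPF (-0.45 ± 0.10, adjusted p = 0.0839) and MKI67 (-0.40 ± 0.10, adjusted p = 0.0951). CENPA and HJURP, which fell after 12 Gy, had LBP values of 0.03 ± 0.10 and 0.04 ± 0.09.

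In irradiated cells, 1 of 59 members was lower with LBP and 0 were higher, against 1.57% lower and 2.79% higher in the whole table. At an unadjusted p under 0.05, 13 were lower and 3 higher, again without a share of all features to set beside them. The median difference was -0.08. Groups did not overlap, with LBP lower, in 14 members, against 13.6% of features. The called member was PTTG1, the securin that inhibits separase (chr5:160421822-160428744, plus strand). It measured 79.5 and 84.3 CPM in the vehicle libraries, 72.7 and 77.1 with LBP, 71.4, 72.7 and 77.6 after 12 Gy, and 57.3, 65.8 and 58.4 after LBP and 12 Gy, so that the irradiated LBP libraries were the lowest of all without overlap (-0.29 ± 0.07, adjusted p = 0.0435). The call was lost without vehicle replicate 1 or 2, without any 1 of the irradiated vehicle libraries, and without irradiated LBP replicate 1 or 3. BIRC5, at -0.27 ± 0.07 (adjusted p = 0.051), became called lower without LBP replicate 1 or 2. LMNB1 became called lower without irradiated LBP replicate 2. CDC25B became called as higher with LBP, not lower, without irradiated LBP replicate 1. In 2 members, HJURP and PIF1, the irradiated LBP libraries all lay above the irradiated vehicle libraries, against 13.9% of features. Neither passed (0.21 ± 0.07, adjusted p = 0.125, and 0.42 ± 0.15, adjusted p = 0.136).

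Averaged over the radiation states, 9 of 59 members (15.3%) were lower with LBP and 0 were higher, against 2.93% lower and 3.99% higher in the whole table. They were TPX2, PRC1, LMNB1, DEPDC1B, NDC80, BIRC5, ANLN, FOXM1 and PTTG1. The median difference of the 59 was -0.12. In 1 member every LBP library was below every library without LBP, against 3.26% of features. That count also required non-irradiated LBP libraries to lie below irradiated vehicle libraries. The 12 Gy difference was below 0 in 59 of 59 members, so the count says little about LBP in them. The summed keratinocyte markers given above were also higher with LBP than with vehicle in non-irradiated cells, without overlap, and their part in these results was not tested. TPX2 changed by -0.25 ± 0.05 (adjusted p = 0.0105). PRC1 measured 278 and 266 CPM in the vehicle libraries, 224 and 234 with LBP, 217, 208 and 199 after 12 Gy, and 186, 188 and 186 after LBP and 12 Gy, so that LBP libraries were below vehicle in each radiation state (-0.20 ± 0.04, adjusted p = 0.0217). ANLN measured 689 and 681 CPM in the vehicle libraries, 601 and 621 with LBP, 523, 567 and 547 after 12 Gy, and 486, 494 and 459 after LBP and 12 Gy, with the same order (-0.18 ± 0.05, adjusted p = 0.0446). DEPDC1B measured 36.6 and 37.9 CPM in the vehicle libraries, 28.7 and 31.4 with LBP, 28.8, 29.3 and 28.0 after 12 Gy, and 26.2, 26.0 and 27.4 after LBP and 12 Gy (-0.21 ± 0.05, adjusted p = 0.0363). In it too the LBP libraries were lower in each state.

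NDC80 changed by -0.29 ± 0.08 (adjusted p = 0.0439), LMNB1 by -0.27 ± 0.06 (adjusted p = 0.024) and BIRC5 by -0.21 ± 0.06 (adjusted p = 0.0439). FOXM1 changed by -0.18 ± 0.05 (adjusted p = 0.0448), and PTTG1 by -0.21 ± 0.06 (adjusted p = 0.0453). FOXM1, LMNB1 and PTTG1 were not called after 12 Gy. The count of 9 was 1 without irradiated vehicle replicate 1, 2 without irradiated vehicle replicate 2 and 3 without irradiated LBP replicate 1. Of all features, 1.33%, 1.43% and 2.18% were lower in these fits, so calls were lost over the whole table too. Fewer members and fewer of all features were also called when a vehicle or LBP library was left out, which left 1 library in that group. TPX2 lost its call in 1 of 17 other settings, when vehicle replicate 1 was left out. The other 8 lost theirs in 6 to 12 of them.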

How the data were processed

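RNA of 10 HaCaT libraries was sequenced in 4 groups. Per the submitters' processing notes, reads were aligned with HISAT2 to GRCh38; no source used here names the counting tool, annotation or strand setting. The authors deposited a table of raw counts per gene and FPKM values beside them, which are scaled to gene length and library size. Of counts from 1 to 10, 59.7% were even, so single counts may not be single fragments, and counting error was not derived from them.

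Counts were tested as deposited with edgeR 4.0.16 in R 4.3.3 (TMM scaling, filterByExpr with a minimum count of 10, quasi-likelihood F test), with 1 mean per group and all 10 libraries in the fit. Benjamini-Hochberg adjustment ran over 14799 features within each of 7 contrasts, with calls under 0.05. Averages weight both pretreatments, or both radiation states, equally. Alternatives were DESeq2 1.42.0, RLE scaling, no low-count filter, the compared groups alone, a replicate block, each library left out, and limma 3.58.1 on the authors' FPKM as log2(FPKM + 1) or log2(FPKM + 0.1), with a mean FPKM of at least 1 or no such filter; limma's log2 differences understate low genes. The code was run on simulated counts in which every gene had the same spread and changes were larger than the median member difference. That run does not show how accurate the calls are here.

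Values in every library are given for the 3 members of each role with the smallest p for the averaged 12 Gy contrast, the member with the largest p there, and each member called in an LBP contrast. Of each other list up to 3 genes with the smallest p are named, and CDKN1A. The members and lists were chosen with earlier results of these data known. Positions are from GENCODE v29 (GRCh38), promoters from RefSeq (GRCh38.p14).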

Additional observations from a re-analysis of the deposited data

How the results depend on the processing

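The number of members called depended on the setting more than the size of the differences did. Falls after 12 Gy without LBP, 32 by edgeR, numbered 21 with limma on log2(FPKM + 1), 19 on log2(FPKM + 0.1) and 10 with no FPKM filter. Of all features, 0.363%, 0.354% and 0.0941% fell in these 3 settings. After LBP, 11 became 36 with DESeq2, 19 with no low-count filter, 5, 5 and 1 in the same order of limma settings, and 3 with the compared groups alone. The shares of all features that fell were 0.703%, 0.188%, 0.0907%, 0.0907%, 0.0314% and 0.0554%. LBP without irradiation gave 7 with DESeq2, 1 with RLE scaling, 2 with no low-count filter and 1 with the compared groups alone. Over all features, 1.24%, 0.311%, 0.397% and 0.849% were lower in these settings. LBP in irradiated cells gave 3, 2, 2 and 0 in that order of settings, and 0, 0 and 0 with limma. There 3.52%, 1.55%, 1.38% and 1.00% of all features were lower, and 1.37%, 1.33% and 0.288% with limma. DESeq2 also called 4.78% of features higher. With no FPKM filter the 12 Gy average gave 19 and the LBP average 3, against 0.183% and 0.889% of all features lower. DESeq2 gave 16 for the LBP average, against 4.70% of all features lower. The limma medians, in the same order, were -0.30, -0.31 and -0.30 for 12 Gy after LBP, -0.21, -0.22 and -0.21 for LBP without irradiation, 0.14, 0.14 and 0.14 for the interaction, and -0.16, -0.16 and -0.16 for the LBP average. The cause was not tested.

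Leaving out 1 irradiated library gave 18 to 34 calls for 12 Gy without LBP and 9 to 14 after LBP. It gave 0 to 2 for LBP without irradiation, 0 to 2 in irradiated cells, 0 for the interaction, 32 to 39 for the 12 Gy average and 1 to 9 for the LBP average. Of all features, 0.203% to 0.454%, 0.109% to 0.183%, 0.156% to 0.516%, 0.339% to 1.55%, 0.00678% to 0.0204%, 0.420% to 0.617% and 1.33% to 3.51% were lower, in that order. For LBP in irradiated cells 0.854% to 3.34% were higher. Leaving out a vehicle or LBP library left 1 library in that group. Fewer members and fewer of all features were then called in each 12 Gy comparison and the LBP average. With each of the 10 libraries left out in turn, the medians ranged from -0.49 to -0.42, -0.39 to -0.33, -0.18 to -0.15, -0.0914 to -0.0439, 0.0528 to 0.13, -0.43 to -0.34 and -0.12 to -0.10 in the order of comparisons above. With fewer libraries the fit also has fewer degrees of freedom.

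Same-numbered libraries of different groups did not deviate together: 13 pairs had correlations of -0.16 to 0.11, 2 of them over 0.1, and 3 of 10 libraries correlated best with their own number. With the replicate number as a block, 29, 14, 0, 2, 0, 37 and 10 members were called in the same order, and the median for 12 Gy without LBP was -0.48. Of all features, 0.351%, 0.189%, 0.331%, 2.14%, 0%, 0.466% and 3.54% were called lower.

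The settings were compared for 78 values: the 12 Gy average of each member with values in every library, and their calls in the other comparisons. In 7 instances the sign changed, with no call in either setting. SKA1 in the 12 Gy average was at 0.0317, 0.0338 and 0.0317 with limma, 0.0528 without vehicle replicate 1, 0.0404 without LBP replicate 1 and 0.00482 without irradiated LBP replicate 1, over a range from -0.0789. MAD2L1 was at 0.00923 without vehicle replicate 2, over a range from -0.133. Of the other instances 1111 kept direction and side of the threshold, 235 lost a call and 6 gained one; calls gained in a comparison where a member had none are not in this tally, such as BIRC5 for LBP in irradiated cells with DESeq2. With 2 or 3 libraries a group, a difference that missed the threshold is not shown to be absent.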
